A study of Mus musculus with 77 samples.

Results

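The genes described are 7 that mark the endothelial tip cell or belong to apelin signalling: *Esm1*, *Apln*, *Aplnr*, *Unc5b*, *Cxcr4*, *Plaur* and *Pdgfb*. They were taken by name, and every probe on the array whose transcript maps to one of them was used, which gave 8 probes of the 55681 measured and 7 genes of the 21154 that carry a symbol. *Pdgfb* had 2 probes and each of the other genes had 1. Tip cells are the endothelial cells at the front of a growing vessel; they extend filopodia, migrate and lead the stalk cells behind them. Apelin is a peptide that sprouting endothelium secretes, and its receptor APLNR is a G protein-coupled receptor found mainly on endothelial cells. In oxygen-induced retinopathy (OIR), high oxygen stops and prunes the growing retinal vessels, and after return to room air the poorly perfused retina sends new sprouts, among them tufts that grow toward the vitreous.

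Retinal RNA was measured in C57BL/6 mice on 77 arrays with 2 colours, each array holding the pooled retinas of both eyes of 1 mouse against a universal mouse reference RNA. OIR mice breathed 75% oxygen from P7 to P12 and then room air, and control mice breathed room air with 21% oxygen throughout. Tissue was collected at P12, the end of the exposure, at P17, when new vessels grow, and at P28, when most of them have regressed. Whole litters were assigned to OIR or control, and the labels do not give the litter of each mouse, so litter could not be put in the model. The control groups held 12 mice at P12, 12 at P17 and 14 at P28, and each of the 3 OIR groups held 13. The number of arrays limits the precision of every value.

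All values are log2 ratios of retina over reference. By the sample labels the retina was in Cy5, whereas the rod photoreceptor genes *Pde6b*, *Sag* and *Gnat1* were brighter in Cy3 on 77 of 77 arrays, by at least 4.18 on the log2 scale, and the table deposited with the series equals the ratio of Cy3 over Cy5; the retina was therefore read in Cy3, and a positive value means more RNA in retina than in the reference. The same rod genes show that the tissue is retina. In a whole retina, fewer cells of a type and less RNA per cell cannot be told apart. A constant of 50 was added to both channels, which draws the ratios of dim spots toward 0, and the differences of the 4 genes called at P17 are smaller than on the deposited ratios, which are given beside them.

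The arrays lay on 11 slides scanned on 4 days, and the 32 arrays of scan day 4 stood apart. Their retina channel had a median of 32076 probes well above background, against 19260 on scan day 1 and 20492 on scan day 3. Scan day 2 held 1 slide with 3 arrays, which had the fewest, a median of 15989. Scan day 4 held 11 of the 13 OIR mice and 9 of the 14 controls of P28, but 2 of the 13 OIR mice and 5 of the 12 controls of P17, and 2 of 13 and 3 of 12 at P12. The comparison of P28 with earlier days is therefore mixed with scan day, and that of OIR with control mice less so. Within scan day 4 the arrays still differed by day of collection. Controls had 20934 to 27918 probes above background at P17 and 31428 to 34328 at P28. The OIR mice had 28722 and 30010 at P17 and 30835 to 34113 at P28. Values within a scan day, or with the slide in the model, are given beside the results.

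Detection differed among the genes. *Unc5b* and the brighter *Pdgfb* probe were well above background in the retina on 77 of 77 arrays and *Apln* on 51, whereas *Plaur* was so on 33, *Esm1* on 23, *Cxcr4* on 19 and *Aplnr* on 18. The other *Pdgfb* probe passed on 3 arrays. In the reference, *Aplnr* was above background on 0 of 77 arrays, so its ratio rests on the retina alone. *Esm1* passed on 13 of 13 arrays of OIR mice at P17, on 1 of 12 controls of that day, and on 0 of 13 and 0 of 12 at P12. At P28 it passed in 6 of 13 OIR mice and 3 of 14 controls, each of them scanned on day 4.

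At P17 the comparison asks which of these genes differ in the retina while new vessels are forming. The ligands apelin and PDGF-B, the secreted proteoglycan endocan encoded by *Esm1*, and the netrin receptor *Unc5b* were all higher in OIR mice than in controls, by 1.5-fold to 2.95-fold. None of the 7 genes was called lower, and the apelin receptor, the chemokine receptor *Cxcr4* and the urokinase receptor *Plaur* did not pass the test. For the genes that were higher, the fold on the deposited ratios ran from 2.01 for *Unc5b* to 49 for *Esm1*. With limma and adjustment over all probes, 4 of 7 genes were called higher, against 0.803% of all probes called higher and 1.13% called in either direction at an adjusted p under 0.05. A model with the slide in it called the same 4, against 0.982% of probes called higher. The median log2 difference was 0.582 over the 7 genes and -0.003 over all 21154 genes.

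*Apln* encodes the apelin peptide. Its ratio ran from -1.17 to -0.31 in the 12 controls, with a median of -0.79, and from -0.10 to 2.02 in the 13 OIR mice, with a median of 0.63. The groups did not overlap: the lowest OIR mouse lay above the highest control. The difference was 1.42 (SE 0.16, 95% interval 1.09 to 1.75), a fold of 2.68 with an adjusted p of 4.8e-06, and 13 of 13 OIR mice lay above every control. Blocked by slide it was 1.41 (adjusted p 0.000814), and within scan days 1, 3 and 4 it was 1.28, 1.13 and 2.27. On the deposited scale the difference was 4.0, a fold of 16.1. In the reference channel none of the 7 genes was called between OIR and control mice on any of the 3 days (lowest adjusted p 0.843).

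*Pdgfb* encodes the ligand by which endothelium, and tip cells above all, recruits pericytes. Control ratios of its brighter probe ran from -1.04 to -0.30 around a median of -0.70, and OIR ratios from -0.36 to 0.46 around a median of 0.18. Only the bottom of the OIR range met the top of the control range, and 11 of 13 OIR mice lay above every control. The rise was 0.79 (SE 0.093, 95% interval 0.60 to 0.99), a fold of 1.73 with an adjusted p of 8.47e-06, and 13 of 13 OIR mice exceeded the control median. It measured 0.78 with the slide in the model (adjusted p 0.001) and 0.66, 0.77 and 1.0 within scan days 1, 3 and 4. On the deposited scale the rise was 1.29. The dim probe of the gene gave 0.00 (adjusted p 0.981) and was above background in 0 of 13 and 0 of 12 mice.

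*Esm1* is among the genes most restricted to tip cells in the growing retina. Its ratio lay between -2.24 and -0.47 in controls, median -1.18, and between -0.47 and 1.27 in OIR mice, median 0.22. The OIR mice began where the controls ended, and 12 of 13 lay above every control. The difference was 1.56 (SE 0.20, 95% interval 1.15 to 1.97), a fold of 2.95 with an adjusted p of 2.41e-05. Slide in the model left 1.54 (adjusted p 0.00142), and scan days 1, 3 and 4 gave 1.37, 1.09 and 2.49. The deposited ratios moved from a mean of -5.26 to 0.36, a fold of 49. Since 11 of the 12 controls were not above background in the retina, the size of this fold depends on the treatment of dim spots.

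*Unc5b*, a receptor through which netrins restrain the filopodia of tip cells, was bright in every mouse. Controls ran from -1.85 to -0.82 with a median of -1.53, and OIR mice from -1.17 to -0.44 with a median of -0.94. Here the groups overlapped more: 13 of 13 OIR mice exceeded the control median, but 4 lay above every control. That overlap came from 1 control, the mouse on slide 11 of scan day 2, at -0.82. The next control had -1.25, below the lowest OIR mouse. The rise was 0.58 (SE 0.088, 95% interval 0.40 to 0.76), a fold of 1.5 with an adjusted p of 0.000306. The blocked value was 0.66 (adjusted p 5.19e-05) and the values within scan days 1, 3 and 4 were 0.52, 0.68 and 0.85. The deposited ratios differed by 1.01.

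The receptors *Aplnr*, *Cxcr4* and *Plaur* were near or below background in most mice of P17. *Aplnr* gave -0.04 (95% interval -0.16 to 0.09, adjusted p 0.839; 7 of 13 OIR mice exceeded the control median), and 3 mice of each group passed background. *Cxcr4*, which guides cells toward CXCL12, gave 0.17 (95% interval 0.00 to 0.34, adjusted p 0.493; 9 of 13 above the control median). *Plaur*, the receptor that holds urokinase at the cell surface, gave 0.26 (95% interval -0.21 to 0.72, adjusted p 0.704; 11 of 13). The blocked differences were 0.02, 0.12 and 0.12 in the same order, and within scan days 1, 3 and 4 the differences ran from -0.03 to 0.10 for *Aplnr*, from 0.05 to 0.18 for *Cxcr4* and from -0.07 to 0.11 for *Plaur*. *Cxcr4* passed the test on the deposited ratios, with a difference of 1.09 (adjusted p 0.0229), where its adjusted p over the alternatives tried ran from 0.0229 to 0.893. *Plaur* passed on the deposited ratios blocked by slide, with 0.98 (adjusted p 0.0489, in a range from 0.0489 to 0.988).

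**Figure D1:**
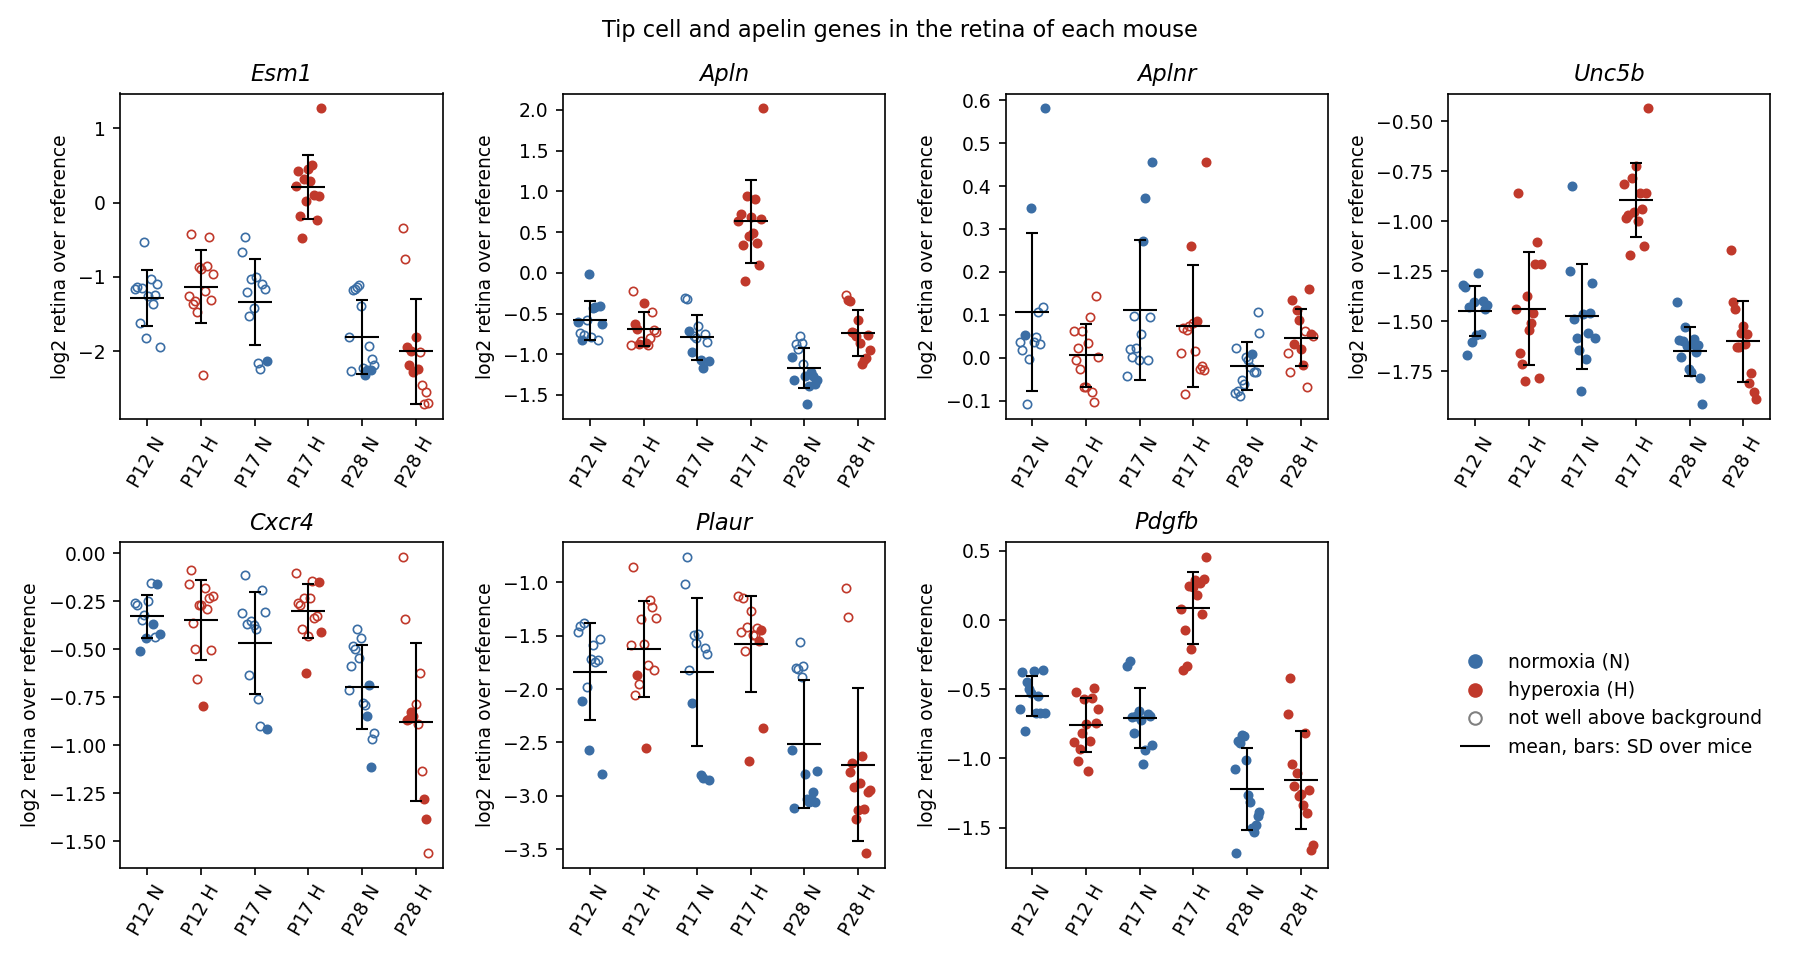
Log2 ratio of retina over reference (y axis) of each of the 7 genes in the 6 groups (x axis); each point is 1 mouse, filled where the probe was well above background in the retina, and the bars give mean and SD. At P17 all 13 OIR mice lie above all 12 controls for *Apln*, and 12 of 13 do for *Esm1*.

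At P12, the end of the exposure to oxygen, none of the genes differed past the threshold. *Pdgfb* came closest, with a lower ratio in OIR mice, and *Esm1* was not well above background in any mouse of either group. The remaining genes had differences between -0.10 and 0.21. With limma, 0 of 7 genes were called, against 0.0233% of all probes, each of the latter lower in OIR mice; at an unadjusted p under 0.05 it was 1 of 7, against 1740 of 55681 probes.

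*Pdgfb* ran from -0.81 to -0.36 in controls, median -0.54, and from -1.09 to -0.49 in OIR mice, median -0.75. Most OIR mice lay in the lower part of the control range or below it: 11 of 13 were under the control median and 6 under every control. The difference of -0.21 (95% interval -0.35 to -0.07) had an unadjusted p of 0.00452 and an adjusted p of 1. It was -0.27 with the slide in the model (adjusted p 0.263), and -0.25, -0.20 and -0.34 within scan days 1, 3 and 4. On 3 of 14 alternatives it was called, among them the deposited ratios with a difference of -0.66 (adjusted p 0.000117; the range over the alternatives was 2.46e-05 to 1).

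The other genes of P12 lay close together between the groups. *Apln* had a median of -0.62 in controls and -0.72 in OIR mice, and 10 of 13 OIR mice were under the control median (difference -0.10, 95% interval -0.28 to 0.08, adjusted p 1). *Unc5b* had medians of -1.42 and -1.46, with a difference of 0.01 (95% interval -0.16 to 0.19). Blocking by slide gave -0.15 for *Apln* and -0.07 for *Unc5b*, and within scan days 1, 3 and 4 *Apln* gave -0.10, -0.10 and -0.28 and *Unc5b* 0.00, -0.06 and -0.11. *Aplnr* was above background in 3 of 12 controls and 0 of 13 OIR mice, and its ratio differed by -0.10 (adjusted p 1). *Cxcr4* passed background in 5 controls and 1 OIR mouse, and *Plaur* in 3 and 2. Each array on which *Aplnr* or *Plaur* passed was scanned on day 4. No fold is given for *Esm1*.

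At P28, when the tufts have regressed almost completely by the paper, *Esm1*, *Pdgfb* and *Unc5b* did not pass the test. *Apln* was 1.35-fold higher in OIR mice and missed the threshold over all probes. With limma, 0 of 7 genes were called, against 0.0611% of all probes; at an unadjusted p under 0.05 it was 2 of 7, *Apln* and *Aplnr*, against 4144 of 55681 probes.

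*Apln* ran from -1.61 to -0.78 in the 14 controls, median -1.25, and from -1.12 to -0.27 in the 13 OIR mice, median -0.77. The upper part of the OIR group lay clear of the controls: 13 of 13 OIR mice exceeded the control median and 7 exceeded every control. The difference was 0.43 (95% interval 0.23 to 0.63), a fold of 1.35 with an unadjusted p of 0.000166 and an adjusted p of 0.125. The call depends on the setting: the gene was called with the slide in the model (0.50, adjusted p 0.00194), on the deposited ratios (1.97, adjusted p 0.00116; 1.26, adjusted p 0.00242, with the slide as well) and on scan day 4 alone (0.49, adjusted p 0.0183; 8 of 11 OIR mice above every control), and on 8 of 14 alternatives in all, with adjusted p from 2.54e-05 to 0.16. Among the 14, the mean over all probes of a gene repeats the main result, since *Apln* has 1 probe. Scan day 4 was the only scan day that held both groups of P28.

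*Aplnr* was above background in 8 of 13 OIR mice and 1 of 14 controls of P28, each of them scanned on day 4. Its ratio had a median of 0.05 against -0.03, a difference of 0.07 (95% interval 0.02 to 0.11, unadjusted p 0.0115, adjusted p 0.601), and 11 of 13 OIR mice exceeded the control median; blocked by slide it was 0.05, and within scan day 4 it was 0.06. *Pdgfb* differed by 0.06 (95% interval -0.18 to 0.31) and *Unc5b* by 0.05 (95% interval -0.08 to 0.18), or by 0.10 and 0.02 when blocked by slide and 0.14 and 0.00 within scan day 4. *Esm1* gave -0.19 (95% interval -0.65 to 0.28), and 0.82 on the deposited ratios (adjusted p 0.774) or 1.32 with the slide as well (adjusted p 0.487), so its direction at P28 is open. *Cxcr4* gave -0.18 and *Plaur* -0.19, their intervals contained 0, and the deposited ratios gave 0.04 and 0.19.

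**Figure D2:**
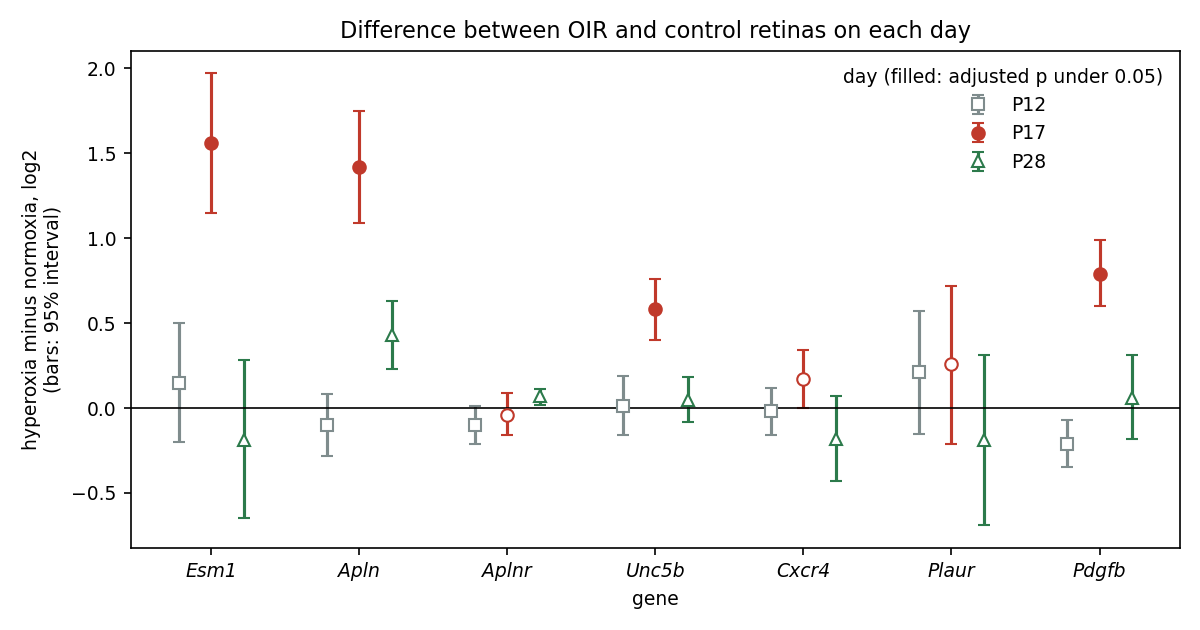
Difference in log2 ratio between OIR and control mice (y axis) for each of the 7 genes (x axis) at P12, P17 and P28, with bars for the 95% interval and filled points where the adjusted p was under 0.05. The 4 filled points are those of *Esm1*, *Apln*, *Unc5b* and *Pdgfb* at P17, between 0.58 and 1.56.

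The change of the oxygen effect between days was tested in a fit of all 6 groups. From P12 to P17 the effect grew for *Apln* by 1.53 (adjusted p 1.38e-09), *Esm1* by 1.41 (0.00326), *Pdgfb* by 1.0 (1.05e-06) and *Unc5b* by 0.57 (0.00205), so 4 of 7 genes were called in this direction against 0.436% of all probes. From P17 to P28 the effect fell by 1.75 for *Esm1* (adjusted p 8.69e-05), by 0.99 for *Apln* (0.000213), by 0.73 for *Pdgfb* (0.00182) and by 0.53 for *Unc5b* (0.00798), again 4 of 7 genes, against 0.244% of probes. A model with the slide in it called all 8 changes, against 0.778% and 0.289% of probes. On the deposited ratios the first change was 4.73 for *Apln*, 5.54 for *Esm1*, 1.95 for *Pdgfb* and 1.27 for *Unc5b*. The later change there was -4.8 for *Esm1*, -2.03 for *Apln*, -1.11 for *Pdgfb* and -0.82 for *Unc5b*. No mouse of P12 was above background for *Esm1*, so the size of its first change is not fixed. The first and the later change share the P17 mice. Without scan day 4 the first change of *Unc5b* was 0.47 (adjusted p 0.176), and on scan day 4 alone the later change of *Pdgfb* was -0.86 (adjusted p 0.0659).

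Within the OIR mice, P17 stood above P12 for 4 of 7 genes, against 1.94% of all probes called higher. *Apln* rose by 1.32 (adjusted p 5.21e-14; 13 of 13 mice of P17 above every mouse of P12), *Pdgfb* by 0.85 (5.53e-10; 13 of 13) and *Unc5b* by 0.54 (4.49e-07; 13 of 13 above the P12 median). *Esm1* had no mouse above background at P12 and 13 of 13 at P17, so the size of its rise is not fixed: the ratio gives 2.54-fold (adjusted p 1.03e-06) and the deposited ratios 50.1-fold. In the retina channel without the reference, after loess and Aquantile normalisation, P17 was at least 2.94-fold higher, with each array of P12 taken at no less than its lowest signal above background. After blocking by slide the differences were 1.33, 0.86, 0.58 and, for *Esm1*, 1.41, and all 4 were called, against 3.38% of probes called higher. In the controls, limma called 0 of 7 genes between P12 and P17, against 1.28% of all probes, and 0 of 7 at an unadjusted p under 0.05, against 4569 of 55681 probes; the differences lay between -0.20 and 0.01. On the deposited ratios *Cxcr4* fell by 1.14 (adjusted p 0.0439), or by 1.11 with the slide as well (adjusted p 0.00314).

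Between P17 and P28 the share of arrays on scan day 4 also changed. It went from 2 of 13 to 11 of 13 in OIR mice and from 5 of 12 to 9 of 14 in controls. Of all probes, 40.6% were called in OIR mice and 13.4% in controls. In OIR mice 6 of 7 genes had a lower ratio at P28, against 19.4% of all probes called lower. *Esm1* fell by 2.22, *Apln* by 1.37, *Pdgfb* by 1.24, *Plaur* by 1.13, *Unc5b* by 0.71 and *Cxcr4* by 0.58, with adjusted p from 1.82e-16 to 2.93e-05. *Apln* and *Pdgfb* were lower in 13 of 13 mice than in every mouse of P17, and *Esm1* and *Unc5b* in 12 of 13. With the slide in the model the same differences were -1.67, -1.14, -0.98, -0.56, -0.66 and -0.27, each called, against 8.75% of probes called lower. *Cxcr4* was under the P17 median in 12 of 13 mice and *Plaur* in 11 of 13. Detection of these last 2 genes went the other way. It went from 4 of 13 mice above background at P17 to 11 of 13 at P28 for *Plaur* and from 3 to 6 for *Cxcr4*. Each array of P28 that passed for either gene was scanned on day 4, so the change in detection is mixed with scan day. The fall of both genes depended on the scan days as well. *Cxcr4* and *Plaur* were not called on scan day 4 alone, which holds 2 OIR mice of P17 (-0.49 and -0.46, adjusted p 0.105 and 0.318), nor without it, where 2 OIR mice of P28 remain (0.08 and 0.22). *Aplnr*, at -0.03 over all arrays (adjusted p 0.706), was called lower on scan day 4 alone (-0.30, adjusted p 0.0364). Without scan day 4 *Esm1* and *Unc5b* were not called either (-0.69 and -0.35, adjusted p 0.213 and 0.454), and *Apln* and *Pdgfb* were (-0.83 and -0.63, adjusted p 0.00996 and 0.0121).

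In the controls *Pdgfb*, *Plaur* and *Apln* were lower at P28 than at P17, so 3 of 7 genes were called, against 5.38% of all probes called lower. *Pdgfb* fell by 0.52 (adjusted p 0.000138; 14 of 14 mice under the P17 median and 9 under every mouse of P17), *Plaur* by 0.68 (0.0305; 13 of 14) and *Apln* by 0.38 (0.0259; 13 of 14). *Pdgfb* held on scan day 4 alone (-0.53, adjusted p 0.00208) and with the slide in the model (-0.42, adjusted p 0.000276). Within scan day 4 the control arrays of P28 still had more probes above background than those of P17, so that restriction does not remove the difference between arrays. *Apln* did not: it gave -0.25 with the slide in the model (adjusted p 0.151) and -0.28 on scan day 4 alone (adjusted p 0.311). *Plaur* gave -0.42 with the slide (adjusted p 0.00321) and -0.47 on scan day 4 alone (adjusted p 0.0689). Without scan day 4, where the 5 controls of P28 from scan day 3 remain, none of the 3 was called. Their differences there were -0.3 for *Pdgfb*, -0.38 for *Plaur* and -0.3 for *Apln*. On the deposited ratios the genes changed: *Pdgfb* stayed (-0.80, adjusted p 5.93e-07), *Plaur* (-0.41, 0.164) and *Apln* (-0.63, 0.212) were lost, and *Esm1* (-1.22, 0.0204) and *Cxcr4* (-0.98, 0.0251) were gained. *Plaur* passed background in 4 of 12 controls at P17 and 9 of 14 at P28, each of them scanned on day 4. *Aplnr* fell short of the threshold at -0.13 (adjusted p 0.0582; 12 of 14 under the P17 median) and passed it with the slide in the model (-0.14, adjusted p 0.00862) and on scan day 4 alone (-0.26, adjusted p 0.00553).

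The order of the 6 groups shows how far P17 OIR stood from the rest. For *Apln* the mean and SD were 0.63 ± 0.51 at P17 OIR, then -0.59 ± 0.24 in P12 controls, -0.69 ± 0.21 at P12 OIR, -0.74 ± 0.29 at P28 OIR, -0.79 ± 0.28 in P17 controls and -1.17 ± 0.24 in P28 controls. Only the first step and the last exceeded the SD of the groups on either side of them. On the deposited ratios P28 OIR came second for *Apln* (-1.48 ± 0.4), above P12 controls (-2.07 ± 1.34). The last step there, from P17 controls (-2.82 ± 0.9) to P28 controls (-3.45 ± 1.03), was smaller than the SD. *Pdgfb* ran 0.09 ± 0.26 at P17 OIR, -0.55 ± 0.15 in P12 controls, -0.71 ± 0.22 in P17 controls, -0.76 ± 0.20 at P12 OIR, -1.16 ± 0.35 at P28 OIR and -1.22 ± 0.29 in P28 controls. The groups of P12 and the P17 controls lay within about 1 SD of each other in the middle, and the groups of P28 lay within 1 SD of each other at the bottom. On the deposited ratios the middle groups lay further apart. They had -0.96 ± 0.21 in P12 controls, -1.25 ± 0.18 in P17 controls and -1.62 ± 0.16 at P12 OIR.

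*Unc5b* ran -0.89 ± 0.19 at P17 OIR, -1.44 ± 0.28 at P12 OIR, -1.45 ± 0.13 and -1.48 ± 0.26 in the controls of P12 and P17, -1.60 ± 0.20 at P28 OIR and -1.65 ± 0.12 in P28 controls, and each step below the first was smaller than the SD. On the deposited ratios P28 OIR came second for *Unc5b* (-2.07 ± 0.17) and P12 OIR last (-2.54 ± 0.24). *Esm1* ran 0.22 ± 0.43 at P17 OIR, -1.13 ± 0.49 at P12 OIR, -1.28 ± 0.38 in P12 controls, -1.34 ± 0.58 in P17 controls, -1.81 ± 0.50 in P28 controls and -2.00 ± 0.71 at P28 OIR. Since most mice outside P17 OIR were below background for *Esm1*, the order of those 5 groups is not an order of expression.

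*Cxcr4* had group means from -0.30 ± 0.14 at P17 OIR to -0.88 ± 0.41 at P28 OIR, with -0.33 ± 0.11, -0.35 ± 0.21, -0.47 ± 0.27 and -0.70 ± 0.22 in P12 controls, P12 OIR, P17 controls and P28 controls. *Plaur* ran from -1.58 ± 0.45 at P17 OIR to -2.71 ± 0.72 at P28 OIR, with -1.62 ± 0.45 at P12 OIR, -1.84 ± 0.46 and -1.84 ± 0.69 in the controls of P12 and P17 and -2.52 ± 0.60 in P28 controls. On the deposited ratios the lowest mean of both genes was in P28 controls (-3.77 and -5.34), and the highest of *Cxcr4* in P12 controls (-1.65). Since most mice before P28 were below background for both genes, these orders are not orders of expression either. *Aplnr* spanned from 0.11 ± 0.18 in P12 controls to -0.02 ± 0.06 in P28 controls, and its groups could not be placed in order beyond their spread.

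The partners of these genes were read from lists of ligands, receptors, inhibitors and signalling proteins, together with other genes known from tip cells and sprouting endothelium, 57 genes of which 56 had a probe (*Apela*, the second ligand of APLNR, had none). At P17, 9 of 56 were called higher and 0 lower, and the median log2 difference was 0.102, against 347 called higher of 21154 genes and a median of -0.003. At P12 and at P28 limma called 0 of 56, and 5 of 56 on either day at an unadjusted p under 0.05, against 688 of 21154 genes at P12 and 1790 at P28. Under the model with the slide the counts were 12 higher and 1 lower at P17, 1 lower at P12 and 1 higher at P28, and the gene of the last 2 counts was *Robo4*.

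Among the 22 other tip cell genes, 7 were higher at P17. *Rhoj*, a small GTPase of endothelial cells, ran from -0.19 to 0.44 in controls and from 0.80 to 1.61 in OIR mice, and rose by 0.94 (adjusted p 2.15e-07). *Trp53i11* ran from -0.42 to 0.04 and from 0.19 to 1.23, and rose by 0.89 (adjusted p 1.22e-06). For both genes every OIR mouse lay above every control. Of the genes of basement membrane proteins in this list, *Col4a1* rose by 1.09, *Col4a2* by 1.05 and *Nid1* by 1.04, with adjusted p of 0.00061, 0.00609 and 0.00103 and group medians of -0.24, -0.23 and -1.01 in OIR mice against -1.14, -1.03 and -2.06 in controls. Every OIR mouse exceeded the control median of these 3 genes, and 11, 10 and 6 of 13 exceeded every control. *Nid2* (0.30, adjusted p 0.379) and *Lama4* (0.20, adjusted p 0.536) did not pass, and *Lama4* did on the deposited ratios (1.32, adjusted p 0.0316). *Adm*, which encodes adrenomedullin, rose by 1.31 (adjusted p 0.00157), with a median of -0.67 against -1.76 and 10 of 13 OIR mice above every control. *Plvap*, a protein of endothelial fenestrae, rose by 0.29 (adjusted p 0.0352; 13 of 13 over the control median), and had an adjusted p of 0.0608 with the slide in the model.

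The Notch ligand *Dll4* (0.00, adjusted p 0.997; 6 of 13 OIR mice over the control median), the VEGF receptor *Kdr* (0.47, 0.545; 9 of 13) and *Angpt2* (0.38, 0.205; 13 of 13) did not pass; on the deposited ratios *Angpt2* did (1.78, adjusted p 0.000101). *Angpt2* is a TIE2 ligand of sprouting endothelium, and its medians were 0.39 in OIR mice and -0.01 in controls.

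In the apelin list 1 of 8 genes was called at P17, *Gnai2*, a Gi protein of the kind to which APLNR couples. It rose by 0.80 (adjusted p 1.18e-06), from a control range of -0.07 to 0.30 to an OIR range of 0.44 to 1.32, so that every OIR mouse lay above every control. Of the 10 netrin genes 0 were called at P17, with 1 of 10 at an unadjusted p under 0.05, where 3369 of all 21154 genes stood. *Ntn1*, the ligand, gave 0.18 (adjusted p 0.828), and *Robo4*, an endothelial partner of UNC5B, gave 0.54 (adjusted p 0.134), with medians of 1.41 in OIR mice and 0.76 in controls and 13 of 13 OIR mice over the latter. *Robo4* was called in the model with the slide (0.65, adjusted p 0.0116).

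The CXCR4 ligand *Cxcl12* gave -0.31 at P17 (adjusted p 0.561), with medians of -2.96 in OIR mice and -2.75 in controls; the slide in the model gave -0.38 (adjusted p 0.0285) and the deposited ratios -1.04 (adjusted p 9.57e-05). The second receptor of that ligand, *Ackr3*, gave 0.09 (adjusted p 0.737). Urokinase, *Plau*, the ligand of PLAUR, was above background on 0 of 12 and 0 of 13 arrays of P17. The PDGF list had 0 of 5 genes called at P17 and 3 of 5 at an unadjusted p under 0.05. *Pdgfrb*, the receptor on pericytes, gave 0.31 (adjusted p 0.13; 0.0465 with the slide in the model and 0.0358 on the deposited ratios), with medians of -0.22 in OIR mice and -0.53 in controls.

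General markers of endothelial cells, which carry most of these genes, also moved at P17. Of 15 general endothelial genes, 6 were higher and 0 lower at P17, with a median difference of 0.27, while 3 were lower at P12 (median -0.223) and 1 was higher at P28 (median 0.074). Their summed retina signal, on a log2 scale, had a median of 12.06 in OIR mice of P17 (11.62 to 12.67) and 11.09 in controls (10.78 to 11.42). At P12 the medians were 10.59 in OIR mice and 11.17 in controls, and at P28 they were 11.01, in the 12 OIR mice with every gene measured, and 10.81. *Egfl7* was the brightest gene of the list, and each of the 15 was above background on at least some arrays. The first 4 genes of the list, *Pecam1*, *Cdh5*, *Cldn5* and *Tie1*, gave 0.06, 0.27, 0.11 and 0.11 at P17, none of them called, and *Cdh5* was called with the slide in the model (0.42, adjusted p 0.0214). The 6 called genes rose by 0.37 to 1.63, so some rose as much as the tip cell genes. The part of endothelial content in the rise of the tip cell genes was not tested.

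Other cell types and the hypoxia genes were read the same way at P17, when 347 of 21154 genes were higher; at P12 13 were lower, and at P28 28 were higher. Of 11 mural genes 3 were higher and 0 lower, with *Acta2* the brightest, and the summed signal had a median of 10.98 in OIR mice and 10.43 in controls. Of 16 microglia and macrophage genes 3 were higher and 0 lower, *Itgam* being the brightest (13.63 and 13.18). These medians hide wide ranges. The microglial signal ran from 11.45 to 14.16 in OIR mice and 10.92 to 13.93 in controls, the mural one from 10.19 to 11.3 and 9.89 to 10.86. In both lists the lowest mouse of each group was of scan day 4, which held 5 of 12 controls and 2 of 13 OIR mice. Of 12 Müller cell and astrocyte genes 3 were higher and 0 lower, with *Apoe* the brightest (13.58 and 13.70), and *Pax2* was never above background. Of 20 hypoxia genes 5 were higher and 0 lower, *Aldoa* being the brightest (16.26 and 15.99); *Vegfa* rose by 0.97 (adjusted p 2e-08) and *Ndufa4l2* by 2.03 (adjusted p 1.82e-12), each in 13 of 13 mice above every control.

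Of 9 granulocyte genes 0 were called, and 3 of them, *Cxcr2*, *Ltf* and *Ngp*, were never above background; *Csf3r* was the brightest and the summed signal was 13.88 in OIR mice and 13.68 in controls. Of 10 rod genes 0 were called, with *Prph2* the brightest (17.18 and 17.26). At an unadjusted p under 0.05 the counts were 0 of 9 and 1 of 10. At P12 the mural list had 1 gene lower, and at P28 the microglial and the hypoxia list had 1 gene higher each. *Cxcr4* and *Plaur* are also made by leukocytes, and the share of any cell type in the values of the 7 genes was not tested.

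The genes whose ratios ran most like each member over the 77 arrays were sought among 11816 genes above background on enough arrays. The arrays share day, treatment and scan, so these correlations describe the set and carry no test. *Esm1* was closest to *Adm* (r 0.955), *Nes* (0.945) and *Loxl2* (0.941), and at P17 these differed between OIR and control mice by 1.31, 1.55 and 1.12. *Apln* was closest to *Tagln2* (0.917), *Plxnd1* (0.911) and *Fn1* (0.902). Within groups these last 3 fell to 0.568, 0.608 and 0.557, so much of the likeness lay between groups. *Pdgfb* was closest to *Cd248* (0.964), *Nes* (0.948) and *Arpc1b* (0.933), and *Unc5b* to *Elk3* (0.893), *Cd248* (0.881) and *Slc12a4* (0.872).

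The closest genes were also sought for the receptors that did not pass at P17. *Plaur* was closest to *Mgst2* (0.983), *Rac2* (0.981) and *Anln* (0.98), and *Cxcr4* to *Nckap1l* (0.93), *Cdc25a* (0.925) and *Fmnl3* (0.922). *Aplnr* had lower values, with *Hip1* (0.771) and *Slco2b1* (0.77). None of these 8 genes was called at P17, and after the group means were removed their r was still 0.794 or higher.

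Whether the genes vary together among mice of 1 group was tested in the 13 OIR mice of P17, over 21 pairs, by permutation with 100000 resamples. *Esm1* and *Apln* had a Pearson r of 0.96 (p 1e-05, the smallest the permutations can give; adjusted p 0.00021) and a Spearman coefficient of 0.91 (p 7e-05, adjusted p 0.00147), and without the 2 mice farthest from the *Esm1* median r was 0.85. The mouse with the highest *Esm1* ratio also had the highest *Apln* ratio. *Apln* and *Unc5b* had r 0.93 (p 5e-05, adjusted 0.000525) and Spearman coefficient 0.76 (p 0.00394, adjusted 0.0414), with r 0.75 without the 2 farthest mice. On the deposited ratios *Apln* and *Unc5b* gave r 0.74 (adjusted p 0.0211) and 0.44 without the 2 farthest mice, with a Spearman coefficient of 0.74 (adjusted p 0.0368), and with the retina channel alone 0.75 (adjusted p 0.027) and 0.35, with 0.59 (adjusted p 0.106), so with that channel alone the relation rests on those mice. *Esm1* and *Unc5b* had r 0.89 (p 0.00024, adjusted 0.00168) and Spearman coefficient 0.68 (p 0.0125, adjusted 0.0875), with r 0.62 without the 2 mice farthest from the *Esm1* median.

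In the 6 OIR mice of scan day 3 the same 3 pairs gave r of 0.94 for *Esm1* and *Apln*, 0.98 for *Apln* and *Unc5b* and 0.95 for *Esm1* and *Unc5b*, with exact permutation p of 0.00556, 0.00417 and 0.00278 and Spearman coefficient of 0.94, 1.0 and 0.94. The other scan days held 5 and 2 such mice, under the 6 for which a correlation is given here. On scan day 1 the 5 mice lay close together, from 0.22 to 0.50 for *Esm1* and from 0.49 to 0.91 for *Apln*, and *Unc5b* did not follow: the mouse highest in *Esm1* and *Apln* had -0.861 and the one lowest in *Esm1* had -0.813, within a range of -0.998 to -0.726.

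*Pdgfb* with *Unc5b* had r 0.67 (p 0.00955, adjusted 0.0334) and Spearman coefficient 0.59 (p 0.0356, adjusted 0.125), and r was 0.41 without the 2 farthest mice; on the deposited ratios r was 0.64 (adjusted p 0.0727), the Spearman coefficient 0.76 (adjusted p 0.0368) and r 0.73 without those mice. The r of *Pdgfb* with *Esm1* and with *Apln* was 0.58 in each case (adjusted p 0.0706 in each). Of the remaining pairs, 2 had an adjusted p under 0.05 for r but not for Spearman coefficient: *Aplnr* with *Plaur* (r -0.83, p 0.0066, adjusted 0.0277; Spearman coefficient -0.49, p 0.0889, adjusted 0.267) and *Cxcr4* with *Plaur* (r 0.73, p 0.00551, adjusted 0.0277; Spearman coefficient 0.45, p 0.126, adjusted 0.271). Without the 2 farthest mice they gave -0.34 and 0.35, so on this scale they rest on those mice. On the deposited ratios neither passed (*Cxcr4* with *Plaur* r 0.34, p 0.255, adjusted 0.412; *Aplnr* with *Plaur* r 0.21, p 0.497, adjusted 0.594). The genes *Plaur* and *Aplnr* themselves ran with the number of probes above background on the array (r -0.94 and 0.91). That number had r 0.46 with *Esm1*, 0.54 with *Apln*, 0.44 with *Unc5b*, 0.10 with *Pdgfb* and -0.58 with *Cxcr4*.

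**Figure D3:**
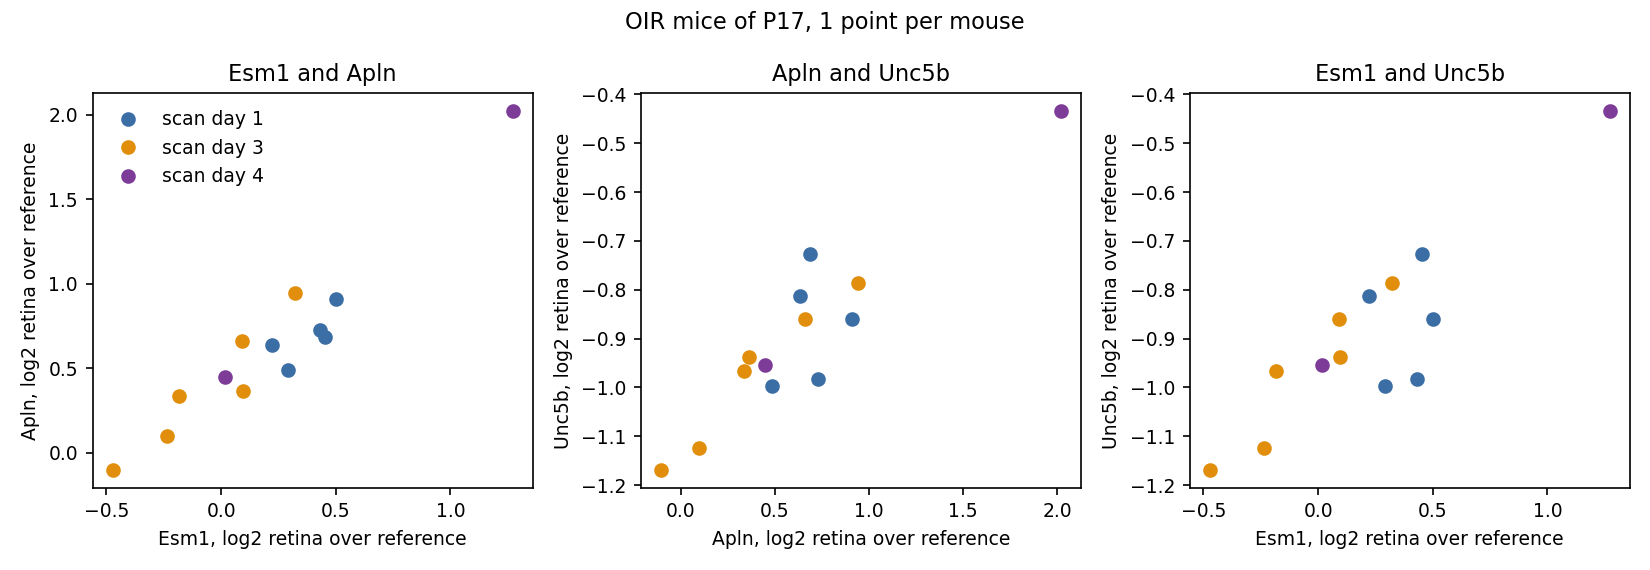
Log2 ratios of retina over reference for *Esm1* against *Apln*, *Apln* against *Unc5b* and *Esm1* against *Unc5b*; each point is 1 of the 13 OIR mice of P17, coloured by scan day. The Pearson r is 0.96, 0.93 and 0.89, and 1 mouse of scan day 4 has the highest value of all 3 genes.

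The promoters of the 3 genes that ran together in these mice are printed to show their sequence, since the core of the hypoxia response element was searched in them. The windows hold 250 bases before and 50 after the transcription start, from RefSeq on GRCm38.p6, each written 5′ to 3′ on the strand of the gene. In the set of promoters used here, 5 of the 7 genes had an entry, and *Aplnr* and *Pdgfb* had none. The motifs were ACGTG and GCGTG on both strands, and capitals mark a match. They lie at chr13:113209409-113209708 on the + strand for *Esm1*, at chrX:48034804-48035103 on the - strand for *Apln* and at chr10:60831532-60831831 on the - strand for *Unc5b*.
Esm1: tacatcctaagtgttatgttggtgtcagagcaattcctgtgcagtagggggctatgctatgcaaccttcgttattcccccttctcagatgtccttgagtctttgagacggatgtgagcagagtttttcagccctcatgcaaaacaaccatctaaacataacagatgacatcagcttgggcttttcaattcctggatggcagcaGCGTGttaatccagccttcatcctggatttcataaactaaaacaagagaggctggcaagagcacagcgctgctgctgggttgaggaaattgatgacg
Apln: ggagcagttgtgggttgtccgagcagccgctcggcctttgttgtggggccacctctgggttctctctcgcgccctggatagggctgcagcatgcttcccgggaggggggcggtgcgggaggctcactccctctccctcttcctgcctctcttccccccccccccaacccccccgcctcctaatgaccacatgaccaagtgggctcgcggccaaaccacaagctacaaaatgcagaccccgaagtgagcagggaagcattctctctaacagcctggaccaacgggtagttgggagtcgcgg
Unc5b: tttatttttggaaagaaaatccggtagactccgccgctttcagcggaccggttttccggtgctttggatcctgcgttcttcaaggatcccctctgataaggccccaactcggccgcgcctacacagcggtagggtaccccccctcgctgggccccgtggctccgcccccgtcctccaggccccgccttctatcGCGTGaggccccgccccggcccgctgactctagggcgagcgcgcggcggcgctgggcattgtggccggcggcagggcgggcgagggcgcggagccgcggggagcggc

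GCGTG was present once in the windows of *Esm1* and *Unc5b*, and neither motif was present in that of *Apln*. Among the receptors, *Cxcr4* (chr1:128592250-128592549, - strand) held GCGTG once and *Plaur* (chr7:24462233-24462532, + strand) held neither. Of 32851 promoters of 300 bases, 43.8% held at least 1 of the motifs. A match describes the letters of the window and is not evidence of a binding site.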

How the data were processed

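The authors scanned each array to spot intensity per channel with Agilent Feature Extraction 10.7.3.1, as the deposited files record, and deposited log2 ratios, which equal the log2 of the processed Cy3 over Cy5 signal within 0.001. Median spot intensities were corrected here with normexp (offset 50) and normalised within each array by loess in limma 3.58.1 under R 4.3.3, with the data.table package in version 1.17.8. Control and outlier spots were left out and spots of a probe averaged. OIR and control mice of a day were compared with limma on all 55681 probes, with Benjamini-Hochberg adjustment and a threshold of 0.05, and days within a single fit of all 6 groups. A gene was read on its brightest probe. The procedure was tested on simulated data.

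The 7 genes and all lists were chosen with earlier results of these data known. Named genes were the 7, the partner and other tip cell genes (first those called, then ligands, receptors and inhibitors), at most 4 genes by list order from each other list, and the 3 genes most like each of the 7. Some genes of these sets are not reported here. Gene names were matched from transcript identifiers in RefSeq, and 28026 probes had a symbol. The study's text names its test, adjustment and threshold, but not its normalisation, flags or baseline in GeneSpring.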

Additional observations from a re-analysis of the deposited data

Results flagged for a closer look

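A direct test in limma of the change in the oxygen effect, OIR minus control on the log2 scale, passed for 4 genes when P17 was set against P12: *Esm1* by 1.41 (95% interval 0.82 to 2.0), *Apln* by 1.53 (1.18 to 1.87), *Unc5b* by 0.57 (0.34 to 0.80) and *Pdgfb* by 1.0 (0.72 to 1.29). The adjusted p-values were 0.00326, 1.38e-09, 0.00205 and 1.05e-06. On the deposited ratios these changes were 5.54, 4.73, 1.27 and 1.95. No mouse of P12 was above background for *Esm1*, so the size of its change is not fixed. The test passed for the same 4 genes when P28 was set against P17, with changes of -1.75 for *Esm1*, -0.99 for *Apln*, -0.53 for *Unc5b* and -0.73 for *Pdgfb*, with adjusted p-values of 8.69e-05, 0.000213, 0.00798 and 0.00182. Blocked by slide, the later changes were -1.49, -0.89, -0.59 and -0.56. Of the 15 general endothelial genes, 8 changed upward from P12 to P17, by 0.39 to 2.66, and 4 downward from P17 to P28, by 0.54 to 1.17, so these changes are not particular to the tip cell genes. Both changes use the same mice of P17, so they are not independent of each other. The fits with and without scan day 4, on which more probes were above background, gave the exceptions stated for *Unc5b* and *Pdgfb*.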

How the results depend on the processing

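At P17 the 4 genes were called higher under all 14 alternatives tried, from 1.12 to 5.84 for *Esm1*, 1.14 to 4.04 for *Apln*, 0.50 to 1.16 for *Unc5b* and 0.40 to 1.31 for *Pdgfb*. Among the 14, the mean over all probes of a gene can change only *Pdgfb*. For the genes with 1 probe it repeats the main result and is no separate check. Sex as a covariate, leaving out slide 11 or scan day 4, scan day 4 alone, slide together with the deposited ratios, and the correlations by slide or scan day were chosen after seeing the data. Without scan day 4 the oxygen comparison of P28 was not fitted, since each remaining scan day held P28 mice of 1 group. No paired analysis was possible because no mouse is in 2 groups.

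The counts of the 7 genes that differed by setting were as follows. The closing brackets give the probes called, of 55681 unless stated, first as in the results above and then in each named setting, in order. At P17 (4) it was 5 on deposited ratios, without and with slide (631, then 1471 and 1235). At P12 (0) the count was 1 on deposited ratios, with the retina channel alone and on deposited ratios with slide (13, then 39, 40 and 30). At P28 (0) it was 1 with no background subtraction, offset 0, deposited ratios, slide, retina channel alone, array weights, deposited ratios with slide, and scan day 4 alone. From P12 to P17 in controls (0) it was 1 on deposited ratios, with the retina channel alone and on deposited ratios with slide (714, then 1432, 1739 and 2326). From P17 to P28 in controls (3) it was 5 with no background subtraction, with offset 0 and with array weights, 4 with the filter on dim probes, 2 on deposited ratios with slide and on scan day 4 alone, 1 with the retina channel alone and without slide 11, and 0 without scan day 4 (7435, then 8002, 6889, 19001, 8613 of 33204, 9646, 6739, 8342, 6693 and 1054). From P17 to P28 in OIR mice (6) it was 5 with the retina channel alone and on scan day 4 alone, and 2 without scan day 4 (22599, then 21164, 2738 of 55680 and 365). From P12 to P17 in OIR mice (4) it was 5 on deposited ratios, without and with slide, and with the retina channel alone (1909, then 4180, 5811 and 4618). The change of the oxygen effect from P12 to P17 (4) was called for 6 on deposited ratios with slide, 5 with the retina channel alone and 3 without scan day 4, and that from P17 to P28 (4) for 5 without slide 11 and 3 with offset 0 and on scan day 4 alone.

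Of the 56 partner and other tip cell genes, the counts that moved by over 1.5 times were as follows, with the probes called again in closing brackets. The count at P12 (0) was 1 with no background subtraction, offset 0, slide, array weights, without scan day 4 and on deposited ratios with slide, 3 on deposited ratios and 2 with the retina channel alone (13, then 17, 15, 16, 21, 13, 30, 39 and 40). At P17 (9) it was 14 with offset 0, 16 on deposited ratios and with the retina channel alone, and 15 on deposited ratios with slide (631, then 917, 1471, 1691 and 1235). At P28 (0) it was 1 with offset 0, slide, the retina channel alone, 1 fit over 6 groups, and deposited ratios with slide, and 2 on deposited ratios. Of the 21 correlations (6), 4 passed on deposited ratios, among them *Cxcr4* with *Pdgfb* (r 0.77, adjusted p 0.0117), 3 with the retina channel alone, 3 on scan day 3 alone, which holds 6 mice, and 0 when centred on each slide. There the 12 mice stand 2 to a slide and only swaps within a slide count, so the smallest p is 0.0312 and fewer pairs than needed reached it: *Esm1*, *Apln* and *Unc5b* with each other (r 0.97 to 0.98). The cause of these differences was not tested. No difference of the 7 genes between OIR and control mice turned its direction while called; the correlation of *Aplnr* with *Plaur*, called at -0.83, was 0.21 on deposited ratios and not called.

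*Esm1*, *Aplnr*, *Cxcr4* and *Plaur* were below background on most arrays, which limits what their ratios show, above all outside P17 OIR. Scan day and day of collection are partly mixed, and litter is not known. The tissue is the whole retina, so no value is assigned to a cell.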
